A study of Arabidopsis thaliana with 9 samples.

Results

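The PIN-LIKES (PILS) genes of Arabidopsis thaliana encode a small family of auxin carrier-like membrane proteins. The 7 genes were chosen by identifier, namely AT1G20925 (PILS1), AT1G71090 (PILS2), AT1G76520 (PILS3), AT1G76530 (PILS4), AT2G17500 (PILS5), AT5G01990 (PILS6) and AT5G65980 (PILS7). Of these 7 genes, 6 are in the table of 22254 genes, and PILS4 is not analysed here. A filter on low counts left PILS2, PILS3, PILS5 and PILS6, so 4 members were among the 20294 genes tested, and PILS1 and PILS7 are given as counts only. The family was picked because PILS6 RNA was lower in clpp2-1 than in the wild type, so the values of that contrast are given as a description, without a p-value.

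RNA was sequenced from whole seedlings grown for 2 weeks in liquid culture, with 16 h of light at 22 °C and 8 h of dark at 18 °C. Each of 3 genotypes, all in the Columbia-0 (Col-0) background, was represented by 3 libraries: the wild type, without a mutant allele of CLPP2, and clpp2-1 and clpp2-2, both described as knock-outs of CLPP2. This gene (AT5G23140) encodes the peptidase component of the mitochondrial matrix Clp protease. Each allele is represented by a single line, and the nature of the alleles is not stated. Nor is it stated that the 3 libraries of a genotype are separate cultures, so p-values here reflect library-to-library spread that may be technical.

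Auxin moves between cells through carriers of the plasma membrane, with PIN proteins as exporters and AUX1/LAX proteins as importers. PILS proteins sit instead in the membrane of the endoplasmic reticulum, where they retain auxin inside the cell and lower the auxin available for signalling in the nucleus. PILS2 and PILS3 are known to be repressed by PHYTOCHROME-INTERACTING FACTORs and so to rise in light, PILS5 limits growth when overexpressed and is repressed by brassinosteroid signalling, and PILS6 protein becomes less abundant at high temperature. In whole seedlings, fewer cells that express a gene and less RNA per cell cannot be told apart.

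The coding sequences of the 4 expressed members are shown first, since the counts of each can be read separately only as far as their sequences differ. The stretches below, read from the RefSeq genome of build TAIR10.1, are the 60 coding bases at which the 4 genes share most, with the 25 bases common to all 4 in capitals. They lie on chromosomes 1, 1, 2 and 5, at chr1:26812794-26812853 (PILS2), chr1:28715784-28715843 (PILS3) and chr2:7607488-7607547 (PILS5) on the plus strand and chr5:379093-379152 (PILS6) on the minus strand.
PILS2: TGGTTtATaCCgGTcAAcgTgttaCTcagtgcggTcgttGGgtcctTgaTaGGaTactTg
PILS3: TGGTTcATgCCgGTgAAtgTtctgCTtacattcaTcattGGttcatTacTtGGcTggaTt
PILS5: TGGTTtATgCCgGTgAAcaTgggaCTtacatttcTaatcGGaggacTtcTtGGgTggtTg
PILS6: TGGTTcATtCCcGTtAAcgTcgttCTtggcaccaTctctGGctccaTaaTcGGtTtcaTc
Even in this stretch no run of shared bases exceeded a few codons. The longest run shared by any pair of these 4 coding sequences was 10 to 12 bases, and the proteins of PILS6 and PILS3 were 31.9% identical, those of PILS6 and PILS5 35.0%, and those of PILS6 and PILS2 41.0%.

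PILS3 and its tandem neighbour PILS4, which starts 158 bp after PILS3 ends, are closer, with 83.0% identity between their proteins. The longest run they share is 49 bases, shown in capitals with its flanks in spliced coding sequence, because reads from it could belong to either gene.
PILS3: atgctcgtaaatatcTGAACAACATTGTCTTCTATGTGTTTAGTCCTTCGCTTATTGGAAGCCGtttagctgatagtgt
PILS4: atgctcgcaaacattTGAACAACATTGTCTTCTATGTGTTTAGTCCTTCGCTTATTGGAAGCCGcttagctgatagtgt
Of the 2412 windows of 31 bases in PILS3 exons, 54 (2.24%) also occurred in another gene (PILS1, PILS4 or CDKB2;1). PILS2 and PILS7 shared no such window with any gene.

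PILS6 carries a different uncertainty. Its gene, at chr5:377231-379911 on the minus strand with 9 exons and a protein of 431 residues, overlaps AT5G01980, a RING/U-box protein gene on the opposite strand, over 373 bp of exon. That overlap is 21.3% of the PILS6 exon length, and 343 of its 1719 windows of 31 bases (19.95%) were shared with AT5G01980. Whether counting used strand is not stated, so reads of the 2 genes in the overlap cannot be told apart. PILS5 overlaps AT2G17510, a ribonuclease II family gene, over 43 bp (2.4% of its exon length).

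The 250 bases upstream of PILS2 and PILS3 are printed because both genes are known targets of the same factors, and PILS3 fell in clpp2-2 while PILS2 did not pass the test. The windows contain no annotated gene and lie at chr1:26811906-26812155 (PILS2) and chr1:28714515-28714764 (PILS3), both on the plus strand, in TAIR10.1.
PILS2: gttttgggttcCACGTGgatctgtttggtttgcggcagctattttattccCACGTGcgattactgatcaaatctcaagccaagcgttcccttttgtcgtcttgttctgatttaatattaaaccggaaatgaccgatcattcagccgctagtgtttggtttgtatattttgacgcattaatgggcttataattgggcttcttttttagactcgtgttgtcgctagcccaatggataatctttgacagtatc
PILS3: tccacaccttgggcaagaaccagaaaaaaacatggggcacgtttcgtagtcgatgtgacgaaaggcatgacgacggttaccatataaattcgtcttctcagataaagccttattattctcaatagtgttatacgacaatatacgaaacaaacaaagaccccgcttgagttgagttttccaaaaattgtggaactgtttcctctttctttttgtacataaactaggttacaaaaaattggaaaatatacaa
Capitals mark the 2 matches to the G-box CACGTG, a motif bound by PHYTOCHROME-INTERACTING FACTORs, which were found in PILS2. The motifs searched on both strands were CACGTG and TGTCTC, the auxin response element. PILS3 held neither in this window. Of 27443 windows of the same length upstream of genes, 6.5% held CACGTG and 10.9% held TGTCTC. The window upstream of PILS6 lies in the neighbouring gene AT5G02000, 13 bp away, and is not shown.

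The labels were checked on CLPP2 RNA, which fell from 44.6 CPM in the wild type to 5.56 CPM in clpp2-1 (log2 -3.00, adjusted p 2.38e-06) and 4.60 CPM in clpp2-2 (log2 -3.28, adjusted p 1.33e-06), where CPM are counts scaled to library size. Leaf markers (5 genes) and root markers (7 genes) were detected in every library, with none at 0. Summed leaf markers ran from 7004 to 10742 CPM in the wild type, 8005 to 9241 in clpp2-1 and 9339 to 12275 in clpp2-2. Of the 5, 1 (CA1) rose in clpp2-2 against the wild type (log2 2.099, adjusted p 0.0294). Its means were only 0.918, 1.08 and 3.94 CPM in the wild type, clpp2-1 and clpp2-2, against 5976 CPM for the leaf marker RBCS1A in the wild type. CA1 therefore adds little to the leaf sums. The CA1 call was lost without wild-type library 3, clpp2-1 library 3 or clpp2-2 library 2 or 3. It was also lost with the replicate block (adjusted p 0.055) and with only the compared groups fitted (0.0594). Summed root markers ran from 51.1 to 80.1, 51.7 to 67.5 and 47.5 to 59.6 CPM in the same order. Of the 7, edgeR called 0 in any comparison (at most 1 at an unadjusted p under 0.05, 0 by limma-voom and at most 1 by DESeq2). All 7 were nevertheless lower in clpp2-2 than in the wild type, with log2 fold changes from -0.77 to -0.01 and a median of -0.35. In clpp2-1 they ran from -0.62 to 0.61, with a median of -0.16. The median of all genes in clpp2-2 was -0.012, and that of the 5 leaf markers 0.23 (from -0.14 to 2.099). Summed seed storage genes (8 genes) were highest in wild-type libraries 1 and 2 (107 and 23.3 CPM) and clpp2-1 library 1 (12.9 CPM), against 0.350 to 2.67 CPM in the other 6. In those 6 libraries 1 to 5 of the 8 genes were at 0, and edgeR called 0 of the 6 tested in any comparison (6 at an unadjusted p under 0.05 in clpp2-2, 0 by limma-voom and 5 by DESeq2).

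PILS6 RNA was lower in clpp2-1 than in either other genotype, while in clpp2-2 it lay near the wild-type level. The wild-type libraries had 23.3, 23.9 and 25.8 CPM, from 844, 856 and 960 counts. The clpp2-1 libraries had 12.9, 12.9 and 14.6 CPM, from 474, 473 and 537 counts, and the clpp2-2 libraries 21.9, 20.6 and 23.5 CPM, from 799, 730 and 832 counts. All 3 clpp2-1 libraries lay below all 6 others, and the ranges of clpp2-2 and the wild type overlapped.

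The mean level of PILS6 was 24.3 ± 1.33 CPM for the wild type, 13.5 ± 0.969 CPM for clpp2-1 and 22.0 ± 1.42 CPM for clpp2-2 (SD, n = 3 each). The clpp2-1 level was 0.553 of the wild-type level, a log2 fold change of -0.85 (SE 0.0764, 95% interval -1.03 to -0.68). Between clpp2-2 and the wild type the log2 fold change was -0.14 (SE 0.0750, 95% interval -0.31 to 0.03), with an adjusted p of 0.241 from edgeR's quasi-likelihood test. The wild-type libraries of this test are those of the contrast that chose PILS6. The clpp2-2 level was 1.64 times that of clpp2-1 (log2 0.71, SE 0.0764, 95% interval 0.54 to 0.88), which is a description for the same reason. Without wild-type library 1 and clpp2-1 library 1, which had the highest seed storage RNA of their genotypes, and with wild-type library 2 (23.3 CPM of it) kept, the log2 fold change in clpp2-1 was still -0.85, but no member was then called.

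**Figure D1:**
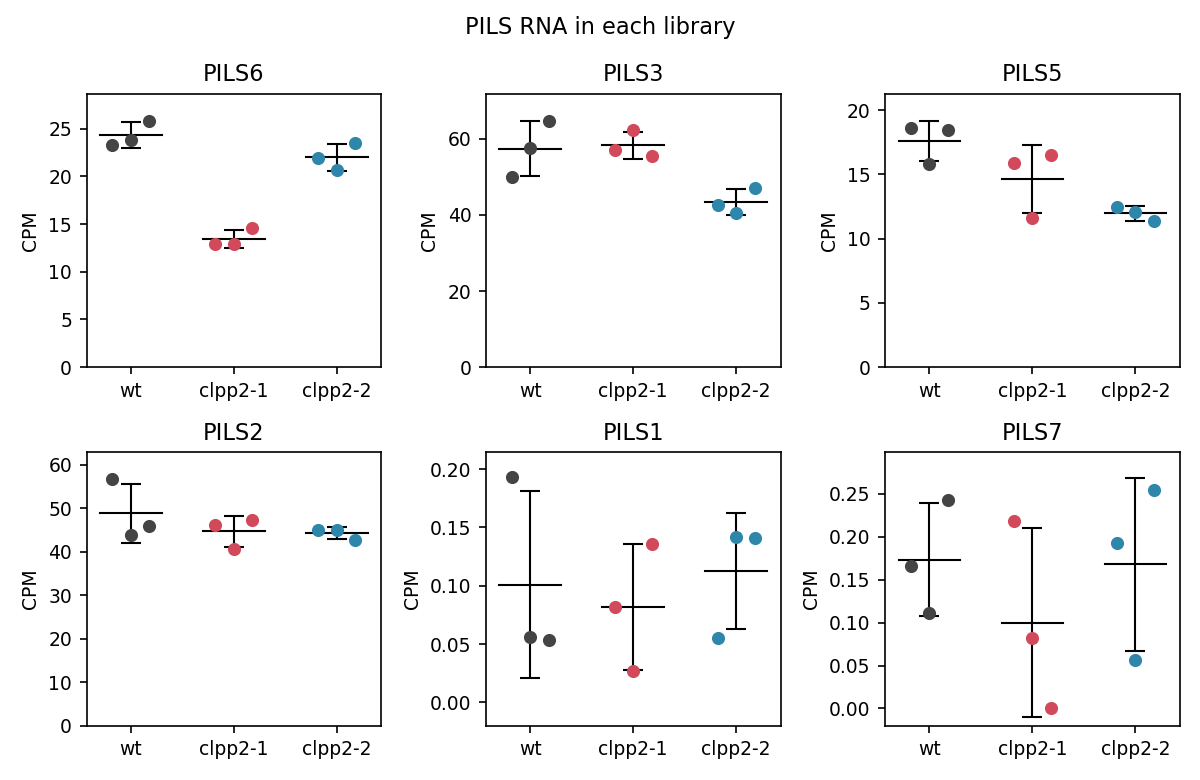
CPM (y axis, from 0 except for a small margin at PILS1 and PILS7) of the 6 PILS genes of the table in each library of the 3 genotypes (x axis); points are libraries, horizontal lines means and bars SD of 3. PILS6 is separated in clpp2-1 (12.9 to 14.6 CPM), PILS3 and PILS5 are lowest in clpp2-2, and PILS1 and PILS7 stay below 0.3 CPM.

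Of the 20294 genes tested, 0.177% passed an adjusted p of 0.05 between clpp2-1 and the wild type, 0.153% being higher and 0.0246% lower in clpp2-1. PILS6 was 1 of the 5 lower genes, as the choice of the family required, and none of the other 3 tested members was called. In clpp2-2 against the wild type 10.1% of genes passed, 5.5% higher and 4.57% lower, and 2 of the 4 tested members fell and none rose. Between clpp2-2 and clpp2-1 3.97% passed, 2.34% higher and 1.63% lower in clpp2-2, and none of PILS2, PILS3 and PILS5 was called by edgeR (1 of the 3, PILS3, had an unadjusted p under 0.05 and was called by DESeq2, and limma-voom called 0). PILS6 is not counted there, because its low clpp2-1 level chose the family. The median log2 fold change of the 4 members was -0.20, -0.27 and -0.15 in these comparisons in turn, and that of all genes -0.001, -0.012 and -0.011. The first and last medians of the members include the PILS6 values that chose the family, so they are a description. For PILS2, PILS3 and PILS5 the log2 fold changes were -0.13, 0.02 and -0.26 in clpp2-1 and -0.01, -0.43 and -0.29 between the lines. The 2 comparisons with the wild type share its 3 libraries.

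PILS3, the member repressed by PHYTOCHROME-INTERACTING FACTORs together with PILS2, fell in clpp2-2. It stood at 50.0, 57.7 and 64.6 CPM in the wild type, at 57.1, 62.3 and 55.5 CPM in clpp2-1 and at 42.5, 40.5 and 47.1 CPM in clpp2-2. All 3 clpp2-2 libraries lay below the 6 others, and the wild type and clpp2-1 overlapped.

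The PILS3 means were 57.4 ± 7.29, 58.3 ± 3.54 and 43.4 ± 3.36 CPM (SD, n = 3 each). Against the wild type the log2 fold change in clpp2-2 was -0.41 (SE 0.0978, 95% interval -0.63 to -0.18, adjusted p 0.0372). Against clpp2-1 it was -0.43 (SE 0.0977, 95% interval -0.65 to -0.20), and the adjusted p of 0.0506 missed the threshold. That difference was not called under 13 of the 17 alternatives, with an adjusted p of up to 0.185 when single libraries were left out. It passed by DESeq2 (0.00301) and with only the compared groups fitted. It also passed without wild-type library 1 (adjusted p 0.032) or 3 (0.0387), which enter this comparison only through the shared estimate of spread. In clpp2-1 the log2 fold change was 0.02 (SE 0.0970, 95% interval -0.20 to 0.24). The fall in clpp2-2 was lost (adjusted p 0.119) without wild-type library 3, which had the highest PILS3 level, without clpp2-1 library 1 (0.0574) or 3 (0.0632), and without clpp2-2 library 1, 2 or 3 (0.104, 0.129 and 0.0684). It held without wild-type library 1 and clpp2-1 library 1 together.

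PILS5, whose overexpression is known to restrain growth, also fell in clpp2-2. The wild-type libraries had 18.6, 15.8 and 18.4 CPM, the clpp2-1 libraries 15.9, 11.6 and 16.5 CPM and the clpp2-2 libraries 12.5, 12.0 and 11.3 CPM. The clpp2-2 libraries lay below all 3 wild-type libraries, while clpp2-1 library 2 fell inside the clpp2-2 range.

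The PILS5 means were 17.6 ± 1.55, 14.7 ± 2.64 and 12.0 ± 0.577 CPM (SD, n = 3 each), a log2 fold change of -0.56 in clpp2-2 (SE 0.130, 95% interval -0.86 to -0.26, adjusted p 0.034). In clpp2-1 it was -0.26 (SE 0.129, 95% interval -0.56 to 0.03). The difference between the lines was -0.29 (SE 0.130, 95% interval -0.59 to 0.00, adjusted p 0.243), so the lines were not shown to differ. Without wild-type library 1 the fall in clpp2-2 was lost (adjusted p 0.101), as it was without wild-type library 3 (0.106) and without clpp2-2 library 1, 2 or 3 (0.0837, 0.111 and 0.118), and without wild-type library 1 and clpp2-1 library 1 together (0.12). Within each genotype the PILS5 level and the root marker sum were lowest in the same library (wild-type library 2, clpp2-1 library 2 and clpp2-2 library 3). PILS2 was lowest in these same libraries (43.9, 40.5 and 42.7 CPM). PILS3 was lowest in others, namely wild-type library 1, clpp2-1 library 3 and clpp2-2 library 2. The part of tissue proportions in the PILS values was not tested.

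PILS2, the second member under PHYTOCHROME-INTERACTING FACTOR control, was called in no comparison. It stood at 56.6, 43.9 and 45.9 CPM in the wild type, 46.0, 40.5 and 47.4 CPM in clpp2-1 and 45.0, 45.1 and 42.7 CPM in clpp2-2. Wild-type library 1 lay above all others and the remaining 8 overlapped. The log2 fold change was -0.13 in clpp2-1 (SE 0.0992, 95% interval -0.35 to 0.10) and -0.14 in clpp2-2 (SE 0.0993, 95% interval -0.37 to 0.08, adjusted p 0.374), and -0.01 between the lines (SE 0.0994, 95% interval -0.24 to 0.21, adjusted p 0.959).

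PILS1 and PILS7 were near the limit of detection in every library. PILS1 had 7, 2 and 2 counts in the wild type, 3, 1 and 5 in clpp2-1 and 2, 5 and 5 in clpp2-2. PILS7 had 6, 4 and 9 counts in the wild type, 8, 3 and 0 in clpp2-1 and 7, 2 and 9 in clpp2-2, where a count of 0 allows up to 3 counts. At library totals of 36043744 to 36477053 counts no difference between genotypes was detectable for either gene. In PILS1, 12.9% of the exon length overlaps the cell-cycle kinase gene CDKB2;2.

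**Figure D2:**
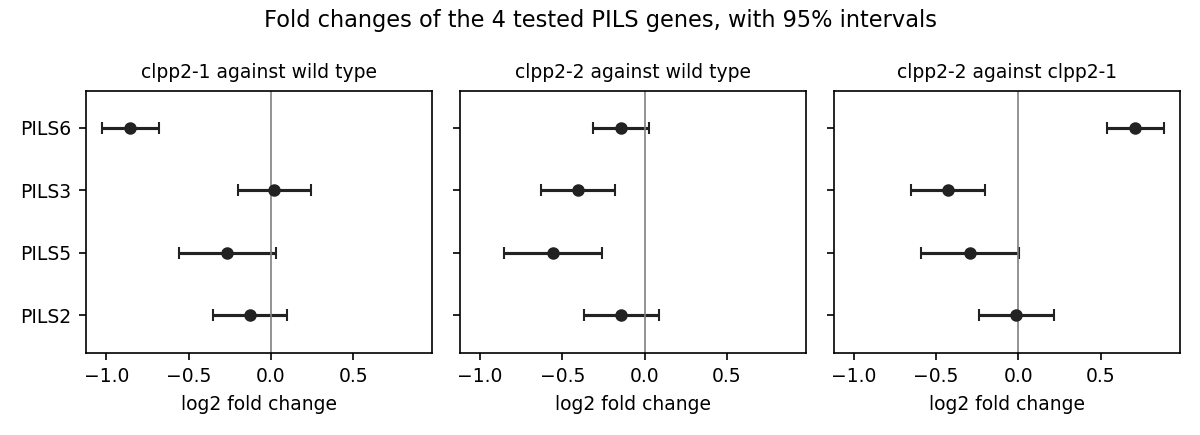
Log2 fold change (x axis) of PILS2, PILS3, PILS5 and PILS6 in the 3 comparisons; points are fitted values and bars 95% intervals of edgeR's quasi-likelihood fit. The PILS6 values in the comparisons with clpp2-1 libraries are a description, since its low level there chose the family, and its interval in clpp2-2 against the wild type spans 0. The PILS3 and PILS5 intervals lie below 0 in clpp2-2 against the wild type. In clpp2-2 against clpp2-1 the PILS3 interval lies below 0 and the PILS5 interval ends just above it, at 0.0037.

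Levels can be compared between genes only per length, so CPM were divided by exon length in kilobases. In the wild type PILS2 (24.2 ± 3.396 CPM per kb, SD, n = 3) and PILS3 (23.8 ± 3.02) led and did not differ beyond their spread. PILS6 followed at 13.9 ± 0.763 and PILS5 at 9.90 ± 0.871 CPM per kb, with PILS7 (0.0903) and PILS1 (0.0676) far below. In clpp2-1 PILS3 (24.2 ± 1.47) and PILS2 (22.1 ± 1.81) again lay within their spread, and PILS6, at 7.70 ± 0.554 CPM per kb, was within the spread of PILS5 at 8.24 ± 1.48. In clpp2-2 the order was PILS2 (21.9 ± 0.668), PILS3 (18.0 ± 1.39), PILS6 (12.6 ± 0.813) and PILS5 (6.72 ± 0.324 CPM per kb), with no overlap between neighbours.

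The summed level of the 6 genes was 71.9 ± 3.34 CPM per kb for the wild type, 62.3 ± 2.22 for clpp2-1 and 59.4 ± 1.45 for clpp2-2 (SD, n = 3). PILS6 made up 19.3 ± 0.908% of that sum for the wild type, 12.3 ± 0.636% for clpp2-1 and 21.2 ± 0.865% for clpp2-2. The share of PILS3 was 33.1%, 38.8% and 30.2% in the same order, and that of PILS5 13.7%, 13.2% and 11.3%. The share of PILS2 was 33.6%, 35.5% and 37.0%. Because PILS6 is part of the sum and was chosen for its low clpp2-1 level, the clpp2-1 sum and shares follow in part from that choice. The larger PILS3 share in clpp2-1 came with a PILS3 level of 24.2 CPM per kb there, beside 23.8 in the wild type.

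**Figure D3:**
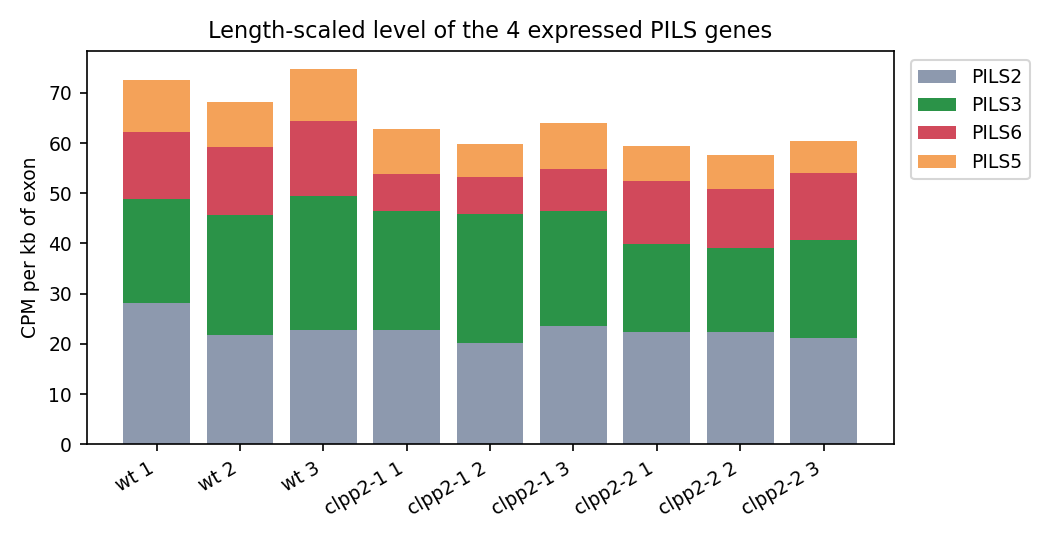
Stacked CPM per kb of exon (y axis) of the 4 expressed PILS genes in each library (x axis); each coloured segment is 1 gene. PILS2 and PILS3 form the largest segments in every library, and the PILS6 segment is smallest in the 3 clpp2-1 libraries, with means of 13.9 CPM per kb in the wild type and 7.70 in clpp2-1.

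The gene that overlaps PILS6 was called in none of the comparisons. AT5G01980 had mean levels of 48.1, 46.4 and 45.4 CPM in the wild type, clpp2-1 and clpp2-2. Its log2 fold change was -0.05 in clpp2-1 (SE 0.0654) and -0.08 in clpp2-2 (adjusted p 0.439). Among the 5 genes on either side of PILS6 in the table, 9 were tested, and edgeR called 0 in any of the 3 comparisons. In clpp2-1 their log2 fold changes ran from -0.14 to 0.27, with 1 at an unadjusted p under 0.05 and 0 called by limma-voom or DESeq2. In clpp2-2 they ran from -0.34 to 0.28, with 4 at an unadjusted p under 0.05, 0 called by limma-voom and 2 by DESeq2. PILS6 and CLPP2 lie 7403761 bp apart on chromosome 5.

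The genes with levels most like PILS6 were found by Pearson's r of log2 CPM over the 9 libraries, among 14262 other genes with a mean of at least 5 CPM. This is a description over libraries that share genotypes. The highest r were 0.929 for AT5G20580 (TMEM192 family), 0.917 for AT3G16660 (Pollen Ole e 1 and extensin family), 0.911 for the mitochondrial identifier ATMG00290, 0.910 for AT5G59980 (GAF1, polymerase/histidinol phosphatase-like) and 0.905 for AT5G04760 (homeodomain-like). AT3G16660 had mean levels of 16.6, 12.4 and 16.0 CPM in the wild type, clpp2-1 and clpp2-2, and AT5G59980 had 14.9, 10.6 and 13.8 CPM, a smaller relative difference than that of PILS6. The lowest r were -0.943 for AT3G04780 (PITH domain), -0.931 for AT5G49510 (prefoldin 3) and -0.930 for AT4G39170 (Sec14p-like). Being picked by r with PILS6, these genes have clpp2-1 levels that follow from the choice. For that reason no p-value is given for them, and their calls by edgeR are a description. None was called in clpp2-1 against the wild type, and only AT3G16660 was between the lines.

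**Figure D4:**
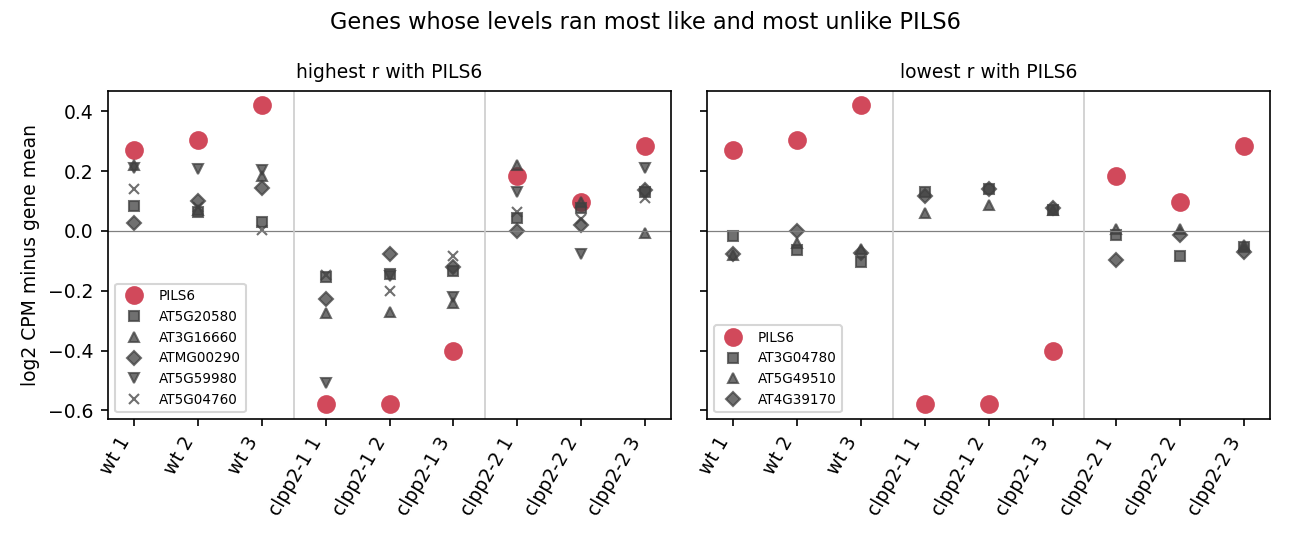
Log2 CPM minus the gene's mean over the 9 libraries (y axis) for PILS6 and the 5 genes with the highest r (left) and 3 with the lowest r (right), by library (x axis). PILS6 spans more of the axis than any gene drawn beside it. All are lowest (left) or highest (right) in clpp2-1, which follows from their choice by r with PILS6.

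The other called members had different companions. PILS3 ran closest to AT4G34050 (CCoAOMT1, a methyltransferase of lignin synthesis, r = 0.982), AT1G51450 (TRAUCO, 0.973) and AT2G01970 (Endomembrane protein 70 family, 0.970). PILS5 ran closest to AT3G47110 (a leucine-rich repeat kinase, 0.988), AT1G23900 (gamma-adaptin 1, 0.985) and AT1G06400 (the small GTPase ARA-2, 0.984). Among the members themselves r over the 9 libraries was 0.71 for PILS2 and PILS5, 0.49 for PILS3 and PILS5, 0.25 for PILS2 and PILS6, 0.16 for PILS5 and PILS6, -0.14 for PILS2 and PILS3 and -0.31 for PILS3 and PILS6.

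The rest of auxin transport, metabolism and response was described from 8 lists, of which 54 of 65 genes were tested. In clpp2-1, where 0.177% of all genes were called, edgeR called 0 of the 54, with 3 at an unadjusted p under 0.05 and 0 called by limma-voom or DESeq2. In clpp2-2 3 of the 54 rose and 0 fell against the wild type, beside 5.5% and 4.57% of all genes, and 2 were higher and 0 lower than in clpp2-1, beside 2.34% and 1.63%. Over the 54 genes the share higher was close to that of all genes against the wild type and above it against clpp2-1. The share lower was below that of all genes in both, and the counts are small. All of the called genes were PIN exporters, of which 7 of the 8 listed were tested. Of these 7, 3 rose against the wild type and 2 were higher than in clpp2-1.

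PIN4, an exporter of the plasma membrane, stood at 6.92, 6.13 and 14.1 CPM in the wild type, clpp2-1 and clpp2-2 (means of 3). Its counts were 280, 221 and 256 in the wild type, 221, 248 and 207 in clpp2-1 and 450, 486 and 569 in clpp2-2, so all 3 clpp2-2 libraries lay above the others. It rose in clpp2-2 against the wild type (log2 1.02, SE 0.128, adjusted p 0.00374) and against clpp2-1 (log2 1.196, SE 0.129, adjusted p 0.00281).

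PIN3, which redirects auxin in tropic growth, rose from 45.1 CPM in the wild type to 63.4 CPM in clpp2-2 (log2 0.49, SE 0.0897, adjusted p 0.016), with 46.7 CPM in clpp2-1. The difference from clpp2-1 was 0.44 (SE 0.0896, adjusted p 0.0347), and it was lost without clpp2-1 library 1, 2 or 3 (0.0942, 0.0883 and 0.12) or clpp2-2 library 2 or 3 (0.123 and 0.102), or without wild-type library 1 and clpp2-1 library 1 together (0.101). PIN7, its close relative, had means of 41.1, 44.3 and 56.0 CPM in the wild type, clpp2-1 and clpp2-2, and rose in clpp2-2 against the wild type (log2 0.45, SE 0.0899, adjusted p 0.0221) but not against clpp2-1 (log2 0.34, adjusted p 0.0764, and 0.0124 by DESeq2). For both genes the rise over the wild type missed the threshold without wild-type library 1 (adjusted p 0.0547 for PIN3 and 0.0697 for PIN7), clpp2-2 library 2 (0.0651 and 0.077) or clpp2-2 library 3 (0.0501 and 0.077), or wild-type library 1 and clpp2-1 library 1 together (0.0784 and 0.0803). PIN5, which like the PILS proteins lies in the endoplasmic reticulum, stood at 1.89, 2.05 and 1.85 CPM, with a log2 fold change of 0.12 in clpp2-1 and -0.03 in clpp2-2 (adjusted p 0.938). PIN8, the other such PIN, is not analysed here.

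No gene of the remaining 7 lists was called by edgeR in any comparison, beside 0.177%, 10.1% and 3.97% of all genes in clpp2-1, in clpp2-2 and between the lines. In clpp2-2 against the wild type, 9 of their 47 tested genes had an unadjusted p under 0.05, 0 were called by limma-voom and 2 by DESeq2. Between the lines these counts were 10, 0 and 1. The median log2 fold changes in clpp2-1 and in clpp2-2 were 0.04 and 0.01 for the 4 AUX1/LAX importers, 0.03 and -0.34 for the 4 ABCB transporters, -0.08 and -0.33 for the 9 tested genes of auxin synthesis, and -0.08 and -0.27 for the 11 tested genes of auxin conjugation and turnover. For the 6 TIR1/AFB receptors they were -0.02 and 0.03, for the 5 tested auxin-induced genes 0.06 and -0.17, and for the 8 tested regulators of light and brassinosteroid response, which include the factors known to repress PILS genes, -0.03 and 0.03. The last median spans both signs: of the 4 PHYTOCHROME-INTERACTING FACTOR genes tested, named here after their values were seen, the log2 fold change in clpp2-2 was 0.07 for PIF1, 0.29 for PIF4, 0.25 for PIF5 and -0.38 for PIF7. None was called, with an adjusted p of 0.122 for PIF4.

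**Figure D5:**
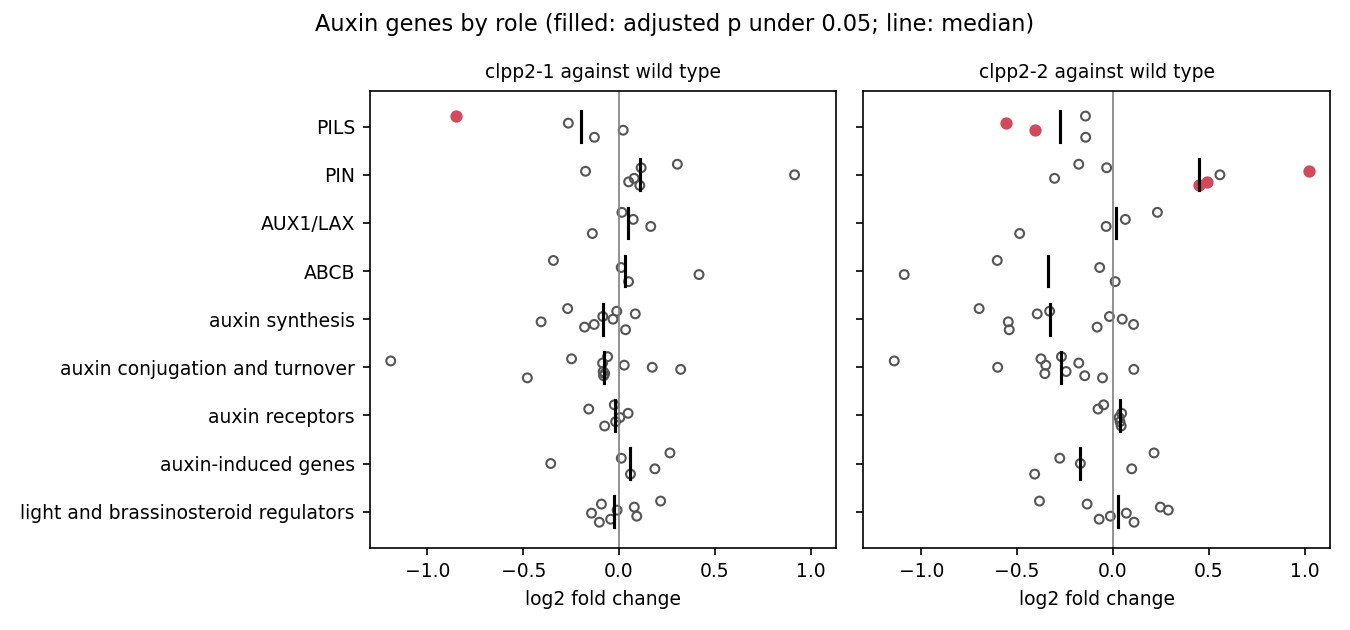
Log2 fold change (x axis) of each tested gene of the PILS family and of the auxin lists (rows) in the comparisons with the wild type; points are genes, filled where the adjusted p was under 0.05, and black lines medians. PIN4, PIN3 and PIN7 are the called genes outside the PILS family, all higher in clpp2-2.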

How the data were processed

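RNA of whole seedlings was sequenced in 3 wild-type, 3 clpp2-1 and 3 clpp2-2 libraries, grouped by the genotype in the labels. The authors deposited estimated counts per gene, whole numbers here, in a table of 22254 genes that each sum to at least 10; the libraries total 36043744 to 36477053, and any scaling before deposition is not stated. Per the submitters' processing notes, the build was TAIR10 and the tools Salmon 0.14.0, FastQC, DESeq and DESeq2, with no role given. Counting error is small for the tested members, with 402 to 2400 counts per library; intervals and floors of counts cover counting error only, or the spread between libraries where stated.

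The counts were rounded and fitted together by edgeR 4.0.16 (quasi-likelihood, TMM factors 0.974 to 1.025) in R 4.3.3. filterByExpr left 20294 genes and removed 1960, and the common biological coefficient of variation was 0.176. Genes with a p below 0.05 after Benjamini-Hochberg adjustment over all genes of a comparison were called and said to have risen or fallen. The SE was obtained by dividing the size of the log2 fold change by the square root of F. CPM use TMM-scaled library sizes, with a prior count of 2 for log2 CPM. No libraries of a genotype were duplicates within sampling noise (chi-square per gene 6.39 to 33.2). Positions, sequences and exon lengths came from the RefSeq genome and annotation of TAIR10.1. Protein identities came from pairwise global alignments in Biopython 1.88. MAFFT 7.526 was used only to find the coding stretch at which the expressed members share most bases.

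The alternatives were DESeq2 1.42.0 (Wald test, and its size factors in edgeR), limma-voom (limma 3.58.1), no filter, library sizes from nuclear genes alone, a fit of the compared groups alone, the replicate number as a block and each library left out. Leaving out wild-type library 1 and clpp2-1 library 1 together was added after seeing the data. The members and lists were chosen with earlier results of these data known. Named were all PILS genes, CLPP2, PIN5, up to 3 called members of a list, and the genes of highest and lowest r with PILS6 (5 and 3) and highest r with PILS3 and PILS5 (3 each). The reads were not used.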

Additional observations from a re-analysis of the deposited data

Results flagged for a closer look

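PILS6 was flagged because the lines differed when compared directly, with clpp2-2 above clpp2-1 by 0.71 on the log2 scale. Since PILS6 was chosen for its low level in clpp2-1, this is a description and carries no p-value. The PIN exporters PIN4 and PIN3 were flagged by the same direct comparison, with clpp2-2 above clpp2-1 by 1.196 (adjusted p 0.00281) and 0.44 (adjusted p 0.0347, and 0.0883 to 0.123 without any 1 clpp2-1 library or clpp2-2 library 2 or 3), and for both all 3 clpp2-2 libraries lay above all 3 clpp2-1 libraries.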

How the results depend on the processing

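Over 17 alternatives the log2 fold change of PILS6 ran from -0.91 to -0.81 in clpp2-1, from -0.19 to -0.09 in clpp2-2 and from 0.67 to 0.77 between the lines, where the first and last are descriptions of the values that chose the family. Without wild-type library 1 and clpp2-1 library 1, the PILS6 value in clpp2-1 was -0.85 and 0 members were called. The log2 fold change in clpp2-2 ran from -0.49 to -0.31 for PILS3 and from -0.63 to -0.51 for PILS5. The number of PILS genes called in clpp2-2 against the wild type was 2, and 1 with only the compared groups fitted (PILS5; PILS3 had an adjusted p of 0.0699) or without wild-type library 1 and clpp2-1 library 1 (PILS3), and 0 to 2 when single libraries were left out. Between the lines it was 1 (PILS6), and 2 by DESeq2 (PILS3, adjusted p 0.00301) or with only the compared groups fitted (PILS3, 0.0222), and 1 to 2 with single libraries left out (2 without wild-type library 1 or 3). With the replicate block 2 members were called in clpp2-2, as without it. The 1 call in clpp2-1 and the 1 between the lines were PILS6, with and without the block. Those 2 calls are a description, because the low clpp2-1 level of PILS6 chose the family. Same-numbered libraries did not deviate together (correlations across genes of 0.117, 0.0241 and 0.0563 for wild type with clpp2-1, and -0.154 to 0.0439 for the other pairs), so the numbers are not taken to pair the libraries. Over all genes, 36, 2044 and 806 were called in clpp2-1, in clpp2-2 and between the lines, 23, 1653 and 513 with the replicate block, 89, 3362 and 1775 by DESeq2, and 21, 1216 and 1494 with only the compared groups fitted. PIN4 was called in both of its comparisons under all 17 alternatives. No called value changed sign, but small differences that were not called did. With single libraries left out the log2 fold change ran from -0.0668 (without wild-type library 1) to 0.115 for PILS3 in clpp2-1, from -0.0716 to 0.0351 (without clpp2-1 library 3) for PILS2 between the lines, and from -0.0880 (without wild-type library 3) to 0.834 for CA1 in clpp2-1. Without wild-type library 1 and clpp2-1 library 1 together it was -0.0520 for PILS3 and -0.0130 for PIN3 in clpp2-1 and 0.0138 for PILS2 between the lines. The cause of these changes was not tested. For PILS1 and PILS7 depth allows no comparison.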
